A study of Mus musculus with 2 samples.

Results

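The T cells described here are one of 12 clusters of cells found by scRNA-seq of hepatocyte preparations from mouse liver, and their members are the 598 genes that the authors listed as markers of the cluster they called T cell. Those 598 genes were 34.1% of the 1755 genes listed for any cluster. Wild type BALB/c mice were injected into the peritoneum once a day, over 5 days, with PBS or with recombinant interleukin 33 (rIL-33) at a dose of 0.5 µg, and per the study's methods they were young adults and had been fasted. Primary hepatocytes were released from the liver by perfusion with digestive enzymes and loaded without sorting, so the leukocytes in the data are those that stayed in a preparation made for hepatocytes. Each treatment gave 1 library, 2 in all, and the marker table pools both, so the T cells cannot be divided between PBS and rIL-33 and there is no replicate from which an error could be taken. No test was run, for the clusters and their markers come from the same cells.

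T cells recognise fragments of antigen held by MHC molecules through a T cell receptor made of a variable pair of chains, in most cells alpha and beta and in a minority gamma and delta. The receptor chains cannot signal by themselves and are carried to the surface with the invariant CD3 chains, which are phosphorylated by the kinase Lck and hand the signal to the adaptors Lat and Lcp2. The liver is known for a resident population of memory T cells, NKT cells and gamma delta T cells that sit in the sinusoids, many of which carry the chemokine receptor CXCR6.

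For every listed gene the table gives 2 shares, the share of cells of the T cell cluster with a value above 0 and the same share of all other cells, pooled. Over the 598 genes the median share was 43.2% in the T cell cluster, with a range from 10.1% to 98.0%, and 17.7% in the other cells, with a range from 0.0% to 69.2%. The share was higher in the T cell cluster for 581 genes and lower for 17. It exceeded that of the other cells by at least 10 percentage points for 501 genes, which was 28.5% of all genes in the table, by at least 25 points for 313 and by at least 50 points for 56. The lowest value taken by the larger of both shares was 25%, reached by Evi2a and Mcm6, and genes under this limit are not in the table. From the shares of genes listed for several clusters, the T cell cluster was computed to hold 1.32% of all cells and 12.98% of the cells outside the 5 hepatocyte clusters. As a background for the groups described below, 21.1% of the 598 genes were listed for no other non-hepatocyte cluster, while 52.0% were also listed for B cells, 34.8% for Kupffer cells, 24.2% for red blood cells and 21.9% for neutrophils. The function groups were assigned after the listed genes were seen. Genes known from T cells enter the table mainly through the T cell cluster. In groups of such genes a part above 21.1% was therefore close to given, and it is not read as a result.

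The shares differed between the tables of the series. For 825 pairs of a gene and a hepatocyte cluster that stand in this table and in a second table of hepatocytes alone, the share in the hepatocyte cluster had a median of 81.8% here and 65.3% in the second table, and it was higher here for 704 pairs, equal for 104 and lower for 17. Of the genes listed for T cells, 84 were also in the hepatocyte table. Their median share was 38.0% of all cells other than T cells here and 12.4% of all hepatocytes in the second table, and it was higher here for 84 of 84 genes. None of the 117 genes listed for T cells alone was among them (0 of 117). That follows largely from their choice as genes listed for no hepatocyte cluster, and their shares could not be compared. A high share in the other cells is given below as the deposited value and is not read as the share of hepatocytes with a transcript. What separated both tables was not tested.

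**Figure D1:**
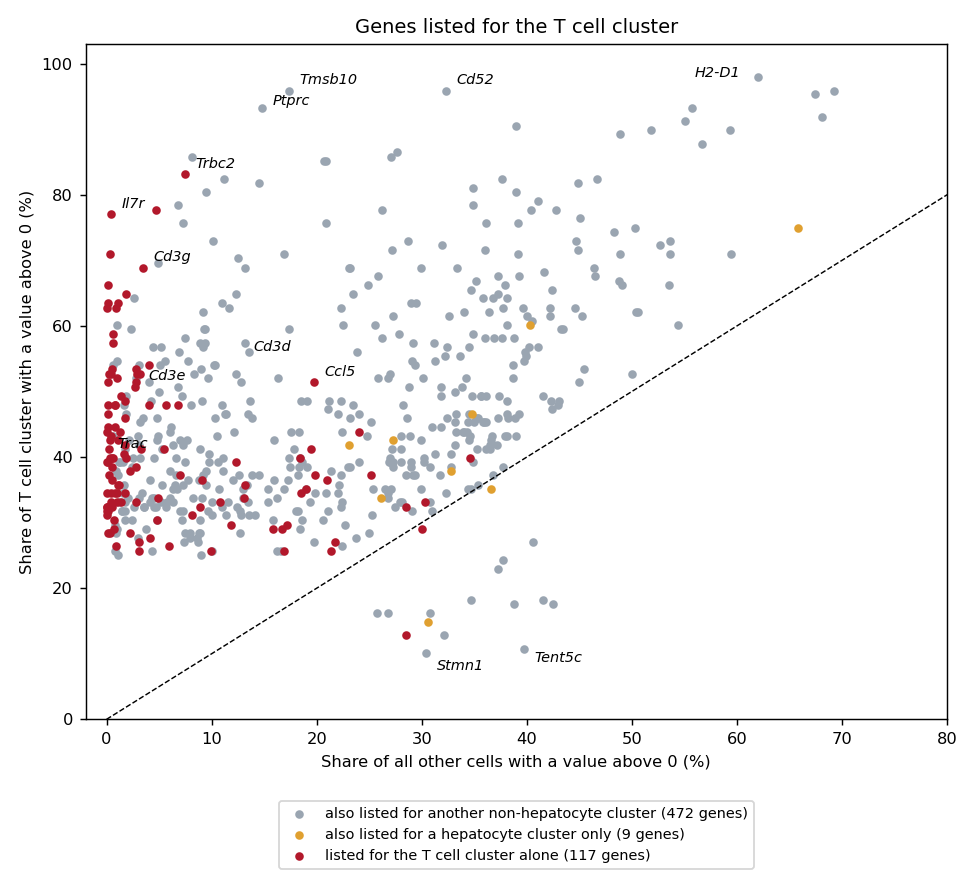
Each point is 1 of the 598 genes listed for the T cell cluster, by its share in all other cells (x axis, %) and in the T cell cluster (y axis, %), coloured by the other clusters it was listed for. The 17 points under the dashed line of equal shares are genes with a lower share in the T cell cluster, and 46 of the 117 genes listed for T cells alone lie under 1% on the x axis.

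The genes of the receptor itself were on the list. They do not check the label independently, since a cluster is named from genes of this kind and some of them enter the table through this cluster alone. Trbc2, a constant region of the T cell receptor beta chain, had a share of 83.1% in the T cell cluster and 7.5% in the other cells. The other beta constant region, Trbc1, stood at 63.5% and 0.1%. Trac, the single constant region of the alpha chain, stood at 43.9% and 0.0%. These 3 genes were listed for no other cluster, and the beta regions were found in a larger part of the cluster than the alpha region. Trgv2, a variable segment of the gamma chain, stood at 31.8% and 0.0% and was also listed for T cells alone. The constant regions of the gamma and delta chains (Tcrg-C1, Tcrg-C2, Tcrg-C4 and Trdc) are not in the table. As Trbc1 and Trbc2 are near-identical copies, the division of reads between them is uncertain.

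The CD3 chains were listed as well. Cd3g, which encodes the gamma chain of CD3, had shares of 68.9% and 3.5%. Cd3e, the epsilon chain that pairs with it, had shares of 52.7% and 3.2%. Cd3d, the delta chain, had shares of 57.4% and 13.2%, and it was the only gene of the 7 in this group listed for a second cluster, the neutrophils, where 43.0% of the cells had a value above 0. With the neutrophils set aside, 12.6% of the cells of the remaining clusters still had a value above 0 for Cd3d, against 3.2% of all other cells for Cd3e. Cd247, which encodes the zeta chain, is not in the table. Ccl5, a chemokine released by activated and memory T cells and by NK cells, stood at 51.4% and 19.7%.

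Cd3g, Cd3d and Cd3e lie side by side on chromosome 9 within 40.1 kb (GRCm38, named mm10 in the labels, chr9:44969572-45009627). Cd3g and Cd3d run in opposite directions from starts 1355 bases apart, and the start of Cd3e lies 27825 bases from that of Cd3d. Their promoters are shown because the genes share a cluster and a locus. Whether these windows bear on the higher share of Cd3d in other cells was not tested. Each line gives the 250 bases before the start in the direction of the gene, from RefSeq on GRCm38.p6, with capitals marking matches to 1 of 4 short motifs searched on both strands: the letters AGGAAG, known from ETS factors, then TGTGGT, known from RUNX factors, then AGATAA, as bound by GATA3 and its relatives, and last the E box, which reads CAGCTG.
Cd3e: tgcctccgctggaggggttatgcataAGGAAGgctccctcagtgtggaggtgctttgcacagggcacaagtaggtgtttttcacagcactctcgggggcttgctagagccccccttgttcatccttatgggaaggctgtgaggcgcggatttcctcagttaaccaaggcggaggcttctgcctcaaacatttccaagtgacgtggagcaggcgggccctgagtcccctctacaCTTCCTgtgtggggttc
Cd3d: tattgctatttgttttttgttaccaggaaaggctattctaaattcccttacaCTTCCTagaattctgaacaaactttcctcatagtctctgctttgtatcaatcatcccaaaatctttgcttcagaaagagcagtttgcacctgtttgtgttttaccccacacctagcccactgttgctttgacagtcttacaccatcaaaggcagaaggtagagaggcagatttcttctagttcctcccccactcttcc
Cd3g: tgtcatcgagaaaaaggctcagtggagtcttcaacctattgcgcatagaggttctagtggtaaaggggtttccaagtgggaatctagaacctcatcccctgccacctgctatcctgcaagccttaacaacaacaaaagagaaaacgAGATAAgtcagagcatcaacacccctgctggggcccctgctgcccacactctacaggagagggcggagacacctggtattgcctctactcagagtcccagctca
The windows lie at chr9:45009612-45009861 on the minus strand for Cd3e, chr9:44981536-44981785 on the plus strand for Cd3d and chr9:44980432-44980681 on the minus strand for Cd3g. Cd3e held AGGAAG from base -224 and its reverse complement CTTCCT from base -17, counted back from the start, and Cd3d held CTTCCT from base -198. Cd3g held AGATAA from base -104 and none of the other motifs (0 matches). Among 32851 windows of all genes, 29.5% held the ETS letters, against 32.4% of 595 windows of genes listed for T cells (453 genes matched by symbol, some with several starts) and 41.3% of 109 windows of genes listed for T cells alone. The RUNX letters were in 14.05%, 13.9% and 18.3% of the same windows, the GATA letters in 9.99%, 6.39% and 7.34%, and the E box in 13%, 11.1% and 11.9%. A match of 6 letters is a description of the window and not a bound site.

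The kinases and adaptors that act behind the receptor formed one of the larger groups of the list. The group of T cell receptor and lymphocyte signalling held 66 genes, with a median share of 43.6% in the T cell cluster and 7.15% in the other cells, and 21 of them (31.8%, against 21.1% of all 598) were listed for no other non-hepatocyte cluster. That part is not read as a result, for the reason given with the background. Lck, the Src family kinase that phosphorylates CD3, had shares of 52.7% and 2.9%. The related kinase Fyn, at 43.9% and 6.0%, was also listed for the HSC / fibroblast cluster. Txk, a kinase of the Tec family, stood at 48.0% and 6.8%. Lat, the membrane adaptor on which the signalling complex assembles, had shares of 48.0% and 0.1%. Lcp2, the cytosolic adaptor SLP-76 that joins it, stood at 50.7% and 6.8% and was also listed for Kupffer cells.

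Several signalling genes were at or close to 0 outside the cluster. Skap1, an adaptor that couples the receptor to integrins, had a share of 62.8% in the T cell cluster and 0.0% elsewhere. Themis, which sets the strength of receptor signals in developing T cells, stood at 32.4% and 0.0%. Tespa1, another protein of thymocyte selection, stood at 52.7% and 0.2%. Prkcq, the protein kinase C theta of the T cell synapse, was less close to 0 elsewhere, at 41.2% and 3.3%. Negative regulators were in the list too. Socs1, an inhibitor of JAK kinases, had shares of 33.1% and 0.4%, and Pik3ip1, an inhibitor of PI3 kinase, had shares of 32.4% and 0.5%. Ptpn22, a phosphatase that dampens Lck, was at 39.2% and 1.2% and was shared with B cells, where the share was 27.9%.

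Other members of this group were those of leukocytes at large. Ptprc, the CD45 phosphatase of all nucleated blood cells, had a share of 93.2% in the T cell cluster and 14.8% in the other cells. Its share was 64.8% in B cells, 52.3% in Kupffer cells and 79.7% in neutrophils, for which it was also listed. Ptprcap, which binds CD45, stood at 78.4% and 6.8%, with 42.1% in B cells. Laptm5, a lysosomal protein of haematopoietic cells, had a share of 75.7% in the T cell cluster but a higher one, 86.8%, in Kupffer cells. Ptpn6, the phosphatase SHP-1, was the one gene of the 66 with a lower share in the T cell cluster, 16.2% against 25.7%.

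Of the receptors that accompany antigen recognition, 22 were listed, with median shares of 46.3% and 2.2%, and 10 of them (45.5%, against 21.1% of all 598) were listed for no other non-hepatocyte cluster. Here too the part of 45.5% is not read as a result. Thy1, a surface glycoprotein of T cells in mice, had shares of 51.4% and 0.1%. Cd28, the costimulatory receptor for CD80 and CD86, stood at 43.2% and 0.4%, and Cd27, a costimulatory receptor of the TNF receptor family, at 48.0% and 5.7%. Cd226, an activating receptor of T and NK cells, stood at 41.2% and 0.2%. Tnfrsf18, which encodes the costimulatory receptor GITR, was at 52.7% and 0.4%. Ms4a4b, a tetraspanning protein of T cells, had the highest share among the receptors listed for T cells alone, 66.2% against 0.1%. Cd2, an adhesion receptor that binds CD48, was shared with B cells, with 54.7% of the T cell cluster, 39.7% of B cells and 1.0% of all other cells. Cd52, a small glycoprotein coating lymphocytes, was close to general in the cluster at 95.9%, and was also at 88.3% in B cells and 78.5% in neutrophils.

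The table does not show which T cell subsets are present. Cd4, Cd8a and Cd8b1, which divide helper from cytotoxic T cells, are not in it, nor are Foxp3, Gata3, Tbx21 and Zbtb16, the factors by which regulatory, type 2, type 1 and NKT cells are told apart. The inhibitory receptors Ctla4, Pdcd1, Lag3 and Tigit are likewise not in the table. Absence from a list of markers does not show that a gene was at 0.

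Cytokines, chemokines and their receptors made up 28 of the listed genes, with median shares of 39.9% and 4.0%, and 17 (60.7%, against 21.1%) were listed for no other non-hepatocyte cluster. Again, the part of 60.7% is not read as a result. Il7r, the receptor chain by which naive and memory T cells receive the survival signal of IL-7, had shares of 77.0% and 0.4% and, of all 117 genes listed for T cells alone, the widest difference, 76.6 percentage points. Its partner Il2rg, the common gamma chain, stood at 54.1% and 4.0%. Il2rb, which completes the receptors for IL-2 and IL-15, was at 57.4% and 0.6%, and Il2ra, the high affinity chain found on regulatory and activated T cells, was lower in the cluster at 28.4% and 2.2%. Il18r1, a receptor chain for IL-18, had shares of 34.5% and 1.0%, and Il27ra, for IL-27, had shares of 39.9% and 0.6%. Ifngr1, for interferon gamma, was shared with B cells at 27.9% and with Kupffer cells at 49.3%, against 48.6% in the T cell cluster. Il6ra and Il6st, the receptor chains for IL-6, were in the table but not listed for T cells, and Il1rl1, which encodes the IL-33 receptor, is not in the table.

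Trafficking receptors of liver and inflamed tissue were in this group. Cxcr6, the receptor of liver-resident T and NKT cells for CXCL16, had shares of 44.6% and 0.1%. Ccr2, a receptor of inflammatory monocytes and effector T cells, stood at 62.8% and 0.9%, and it was listed for T cells alone. S1pr1, by which lymphocytes leave lymphoid organs, was listed in addition and stood at 35.1% and 19.0%. Among the secreted products, Ltb, the lymphotoxin beta chain, had shares of 85.8% and 8.1% and was also listed for neutrophils, at 64.1%, and for B cells, at 29.1%. Xcl1, a chemokine for cross-presenting dendritic cells, had shares of 31.1% and 0.0%. Pf4, a platelet chemokine, was listed too, at 28.4% in the T cell cluster and 37.1% in Kupffer cells.

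Genes of cytotoxic cells numbered 8, with medians of 34.2% and 7.05%. Nkg7, a granule membrane protein of cytotoxic T and NK cells, had shares of 46.6% and 0.1%. Ctsw, a cathepsin of the same cells, stood at 34.5% and 0.0%. The NK receptors Klrk1 (NKG2D) and Klrd1 (CD94), which cytotoxic and NKT cells carry too, had shares in the cluster of 31.8% and 31.1%, but differed in the other cells, with 0.1% and 8.1%. Srgn, the proteoglycan core of secretory granules, was at 85.8%, beside 79.8% of B cells and 79.3% of neutrophils. Ctsc, the cathepsin that activates granzymes, went the other way, at 18.2% of the T cell cluster, 34.7% of the other cells and 63.6% of Kupffer cells. Granzymes (Gzma, Gzmb, Gzmk, Gzmm), Prf1, Fasl and Ifng are not in the table.

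The 7 GIMAP genes, which encode GTPases known from lymphocytes, all lie within 124 kb of chromosome 6 (chr6:48647234-48770851). They had a median share of 64.9% in the T cell cluster and 1.9% in the other cells. In the cluster the lowest were Gimap5 and Gimap8, both at 53.4%, and the highest were Gimap1 and Gimap3, both at 77.7%. These last 2 differed outside the cluster. Gimap3 was at 4.7% of the other cells and was listed for T cells alone, and Gimap1 was at 26.2% and was also listed for B cells (45.7%), endothelial cells (12%) and the HSC / fibroblast cluster (63.2%). Gimap7 had the lowest share outside the cluster, 0.3%, against 70.9% inside it. GIMAP genes are similar in sequence, so reads may have been divided between them.

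Transcription factors and their regulators numbered 32, with medians of 43.2% and 13.9%. Bcl11b, which holds cells to the T lineage, had shares of 48.0% and 0.8%. Tcf7 and Lef1, partners of beta-catenin in early and memory T cells, differed outside the cluster, with Tcf7 at 35.8% and 13.2% and Lef1 at 32.4% and 0.0%. Satb1, an organiser of thymocyte chromatin, stood at 43.9% and 1.3%. Runx3, a factor of cytotoxic and tissue-resident T cells, was listed for T cells alone at 50.7% and 2.7%, whereas Runx1 was shared with Kupffer cells. Stat4, which acts behind the IL-12 receptor, was at 39.2% and 0.0%. Irf7, the master factor of the type I interferon response, was listed for T cells alone at 33.8% and 4.9%. Id2, an inhibitor of E proteins that is needed for innate lymphoid cells and effector T cells, was the most widespread of the 32 at 81.8%, and also stood at 44.9% in the other cells. Of the 10 factors shared with B cells, all 10 had the higher share in the T cell cluster, among them Ets1 at 73.0% against 28.7% and Ikzf1 at 54.1% against 38.1%.

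**Figure D2:**
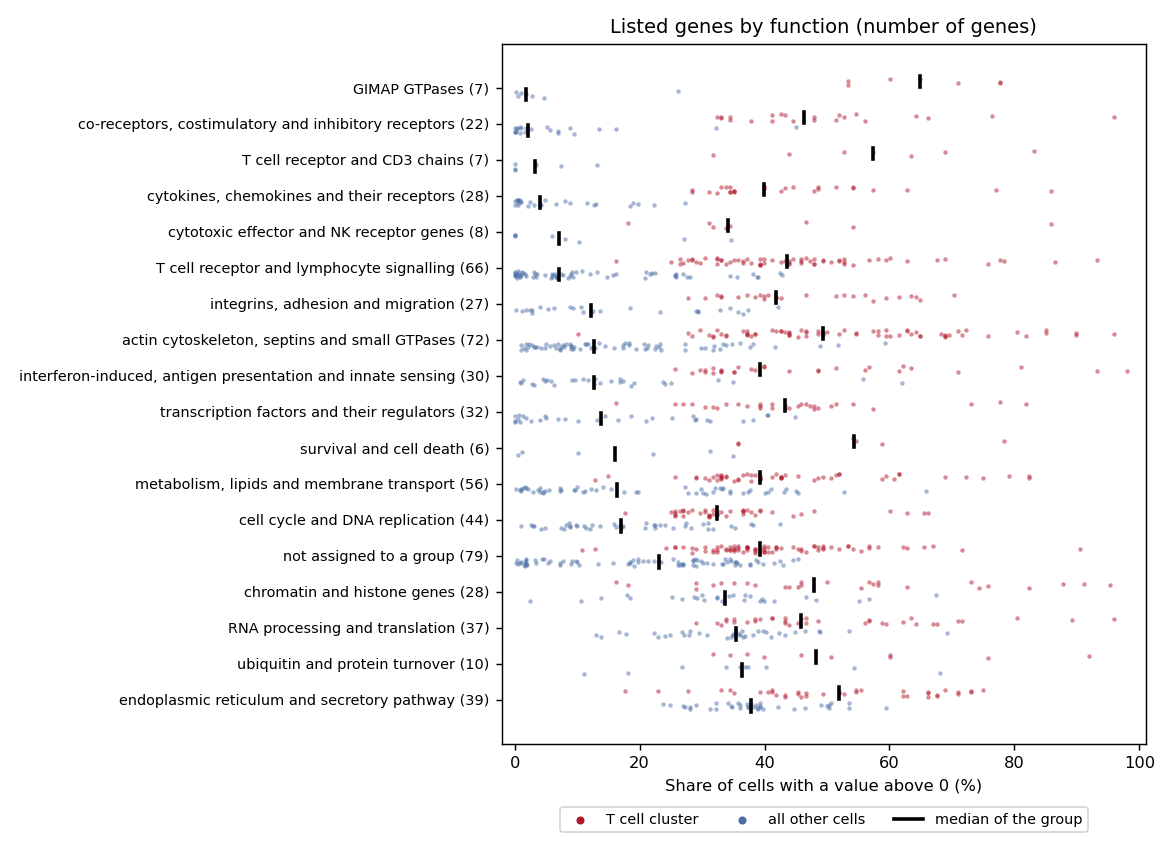
Shares of cells with a value above 0 (x axis, %) for the listed genes in each function group (y axis, number of genes in brackets), in the T cell cluster (red) and in all other cells (blue), with a black bar at the median. Groups are ordered by the median in the other cells, from 1.9% for the GIMAP GTPases to 37.9% for the endoplasmic reticulum and secretory pathway.

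Adhesion and movement were represented by 27 genes of integrins, selectin ligands and their partners, with medians of 41.9% and 12.3%. Itgb7, the beta chain of the integrins that bind mucosal and epithelial ligands, had shares of 51.4% and 2.8% and was listed for T cells alone. Itgae, the CD103 chain that pairs with it, stood at 27.7% and 4.1%. The chains of LFA-1, Itgal and Itgb2, were at 32.4% and 41.9% of the T cell cluster, and both were also listed for B cells, Kupffer cells and neutrophils. Itga4, which pairs with Itgb1 or Itgb7 to bind VCAM-1 or MAdCAM-1, stood at 57.4%, below the 64.0% of B cells. Itga1, the collagen-binding chain of tissue-resident cells, was at 39.9% of the cluster, 34.3% of endothelial cells and 100% of the HSC / fibroblast cluster. Selplg, the ligand of P-selectin, stood at 70.3%, with 44.5% in B cells and 54.0% in neutrophils.

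With 72 members, the actin cytoskeleton, septins and small GTPases were the largest group that was given a function, and their medians were 49.3% and 12.7%. Of the 72, 50 were also listed for B cells (69.4%, against 52.0% of all 598), 35 for neutrophils (48.6%, against 21.9%) and 33 for Kupffer cells (45.8%, against 34.8%). Tmsb10, which binds actin monomers, had the widest difference of all 598 genes, 95.9% of the T cell cluster against 17.4% of the other cells. It was also at 77.7% of B cells and 89.5% of the HSC / fibroblast cluster. Coro1a, an actin regulator of leukocytes, stood at 80.4% and 9.5%, and Rac2, the Rac GTPase of blood cells, at 81.8% and 14.5%. Dock2, which activates Rac in migrating lymphocytes, was at 59.5% and 2.3%, with 33.2% in B cells and 34.4% in Kupffer cells. Rinl, a regulator of endocytic GTPases, was listed for T cells alone at 63.5% and 1.1%. S100a6 and Anxa1 were higher in neutrophils, with 93.2% and 78.9% there and 68.9% and 37.2% in the T cell cluster.

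Interferon-induced genes, antigen presentation and innate sensing gave 30 genes with medians of 39.2% and 12.8%. The classical MHC class I genes were close to general in the cluster, H2-D1 at 98.0% and H2-K1 at 93.2%, and were at 62.0% and 55.7% of the other cells. Psmb8 and Psmb9, subunits of the immunoproteasome, stood at 81.1% and 61.5% of the cluster and were otherwise listed for B cells. These genes belong to families of similar sequence, so that reads of H2-D1, H2-K1 and H2-Q7 may be divided. Schlafen genes were listed as a neighbouring set on chromosome 11 (Slfn5, Slfn2 and Slfn1). Slfn2, which maintains quiescence in T cells, was at 63.5% of the T cell cluster and 84.0% of neutrophils. Aim2, a sensor of cytosolic DNA, stood at 35.8% and 1.1% and was listed for T cells alone.

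Survival and cell death gave 6 genes. Bcl2, the antiapoptotic protein maintained by IL-7, had shares of 58.8% and 0.6%, and Bcl2a1b, another antiapoptotic member of the family, had shares of 35.8% and 1.2%. Both were listed for T cells alone. Bax, which opposes them, was at 54.7% of the T cell cluster, 51.8% of B cells and 31.3% of all other cells. Txnip, a thioredoxin-binding protein that limits glucose uptake, was at 78.4% of the cluster and was listed for 5 further non-hepatocyte clusters.

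In the groups of general cell machinery the shares of both sides lay closer together. The 39 genes of the endoplasmic reticulum and secretory pathway had medians of 52.0% and 37.9%. Of these, 36 (92.3%, against 52.0% of all 598) were also listed for B cells, and 34 of the 36 had the higher share in B cells, such as the chaperone Hspa5 at 62.2% of the T cell cluster and 81.8% of B cells. The signal peptidase subunit Sec11c stood at 66.2% and 86.6% in the same order. RNA processing and translation gave 37 genes with medians of 45.9% and 35.4%, 30 of them (81.1%, against 52.0%) shared with B cells. Rack1, a ribosomal scaffold protein, was at 95.9% of the T cell cluster and 98.4% of B cells. Chromatin and histone genes (28, medians 48.0% and 33.8%) included the histone variants H3f3a and H3f3b and the alarmin Hmgb1, at 82.4% and 46.7%. Ubiquitin and protein turnover gave 10 genes, with medians of 48.3% and 36.5%.

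The 56 genes of metabolism, lipids and membrane transport had medians of 39.2% and 16.5%. Fxyd5, a regulator of the sodium pump, had shares of 82.4% and 11.2%. Its share was 58.7% in B cells, 78.9% in neutrophils and 68.4% in the HSC / fibroblast cluster, for which it was also listed. Pkm, the pyruvate kinase of glycolysis in proliferating and blood cells, stood at 52.0% and 9.7%, with 56.7% in B cells. Pfkp, the platelet form of phosphofructokinase, was listed for T cells alone at 33.1% and 1.0%. Gapdh, by contrast, was at 75% and 65.8%. The glutamine transporters Slc38a1 and Slc38a2 differed outside the cluster, with Slc38a1 at 39.2% and 1.6% and Slc38a2 at 42.6% and 34.5%. The 79 genes that were not assigned to a function had medians of 39.2% and 23.1%, and 15 of them (19.0%, against 21.1% of all 598) were listed for no other non-hepatocyte cluster.

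Genes of the cell cycle and DNA replication numbered 44, with medians of 32.4% and 17.1%. Of the 44, 39 (88.6%, against 24.2% of all 598) were also listed for the cluster of red blood cells, and 35 of those 39 had the higher share there. Mki67, a marker of dividing cells, was at 25.7% of the T cell cluster, 16.2% of all other cells and 92.5% of the red blood cell cluster. Cenpf, a kinetochore protein of mitosis, was at 27.0% of the T cell cluster and 81.2% of the red blood cell cluster. Pcna, the sliding clamp of DNA synthesis, lay closer to the other cells, at 37.2% and 31.7%. Ccnd2 and Ccnd3, the D cyclins of lymphocytes, were at 62.8% and 60.1% of the cluster.

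The lists of pathway genes were read against the 34.1% of all genes in the table that were listed for T cells, and only as counts, since a T cell gene enters the table mainly through the T cell cluster. All genes in the table were listed for T cells in the lists of receptor and CD3 chains (6 of 6), co-receptors (8 of 8), receptor signalling (13 of 13), cytotoxic genes (5 of 5), chemokines and trafficking receptors (8 of 8), integrins and adhesion (11 of 11), GIMAP GTPases (7 of 7), JAK-STAT and interferon response (4 of 4), MHC class I (5 of 5) and actin (14 of 14). Exceptions were found in the others. Cytokine receptors had 8 of 10 listed, T cell transcription factors 11 of 12, with Id3 not listed, survival genes 3 of 4, with Bcl2l11 not listed, and cell cycle genes 9 of 13.

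Markers of other cells were looked up in the same table. None of those in the table was listed for the T cell cluster in the case of B cells (0 of 6), Kupffer cells and macrophages (0 of 9), neutrophils (0 of 5), dendritic cells (0 of 1), stellate cells and fibroblasts (0 of 5), red blood cells (0 of 2) and hepatocytes (0 of 7). Their levels in the T cell cluster are not known, since the table gives a share for a cluster only where the gene was listed for it. As a background, 34.1% of all 1755 genes were listed for T cells. Counts from 1 or 2 genes, here and for NK cells and ILC2s, are too small to be set against that part. Whether the cluster was free of other cells was not tested, and the counts do not show it. For NK cells, 0 of the 2 markers in the table, Tyrobp and Fcer1g, were listed for T cells, and 11 of 13, Ncr1 and Klrb1c included, are not in the table. For ILC2s, the innate lymphocytes that respond to IL-33, 1 of 8 markers was in the table. This was Il17rb, the receptor for IL-25, at 34.5% of the T cell cluster and 18.5% of the other cells, listed for T cells alone. Of 7 endothelial markers 1 was listed, the adhesion molecule Pecam1, at 35.8% of the T cell cluster, with 30.1% of Kupffer cells and 73.7% of the HSC / fibroblast cluster. Since Nkg7, Ctsw, Klrk1, Klrd1, Xcl1, Il7r, Il2rb, Il18r1 and Id2 are also known from NK cells or innate lymphoid cells, the part of such cells in the cluster was not tested.

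Most of the listed genes were not restricted to the list of T cells. Of the 598, 117 were listed for no other cluster and 9 more for hepatocyte clusters but no other non-hepatocyte cluster (Acsl5, Fchsd2, Gapdh, Ints6, Pde3b, Pglyrp2, Psmb5, Rictor and Tmed5). The other 472, or 78.9%, were listed for at least 1 of the 6 other non-hepatocyte clusters. There were 169 genes shared with 1 of them, 149 with 2, 96 with 3, 48 with 4, 8 with 5 and 2 with all 6, namely Resf1, a silencer of retroelements, and Serinc3, a membrane protein that scrambles lipids. Genes listed for T cells alone had median shares of 38.5% and 1.8%, and genes shared with another non-hepatocyte cluster 44.25% and 22.85%. Hepatocyte clusters shared 66 of the 598 genes (11.04%). Each cluster was compared with all other cells, so the comparisons share most of their reference cells, and the counts say which lists a gene was on rather than how clusters differ from each other.

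B cells shared the most genes, 311. These were 52.0% of the T cell list, beside 29.1% of all genes in the table listed for B cells. They were 60.9% of the B cell list, beside 34.1% of all genes listed for T cells. The share was higher in T cells for 169 of them and higher in B cells for 142. For the clusters that follow, the background belongs to the first percentage, and the second is read against the same 34.1%. Next came the Kupffer cells with 208 genes (34.8% of the T cell list, 41.7% of theirs, background 28.4%), of which 149 were higher in T cells, 58 in Kupffer cells and 1 equal. Maf was the transcription factor furthest towards Kupffer cells, with 89.7% there and 45.9% in the T cell cluster. Neutrophils shared 131 genes (21.9% and 58.0%, background 12.9%), 95 of them higher in T cells. Endothelial cells shared 37 (6.19% and 37.8%, near the backgrounds of 5.58% and 34.1%), 34 of them higher in T cells.

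For the other 2 clusters, most of the shared genes had the lower share in the T cell cluster. Red blood cells shared 145 genes (24.2% of the T cell list, 45.3% of theirs, background 18.2%), of which 102 had the higher share in red blood cells. The HSC / fibroblast cluster shared 167, which lay below both backgrounds (27.9% beside 30.5%, and 31.2% beside 34.1%). Of the 167, 148 had the higher share in that cluster, the smallest of the 12 with 0.171% of all cells. There 161 of the 167 had a share of at least 50%, so few genes with lower shares were on its list. The direction of the 148 is therefore not read as a difference between both clusters. Genes shared with a single non-hepatocyte cluster numbered 59 for B cells, 36 for HSC / fibroblasts, 33 for red blood cells, 24 for Kupffer cells, 16 for neutrophils and 1 for endothelial cells, where it was Ctla2a, a cathepsin inhibitor, at 54.1% of T cells and 29.6% of endothelial cells.

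**Figure D3:**
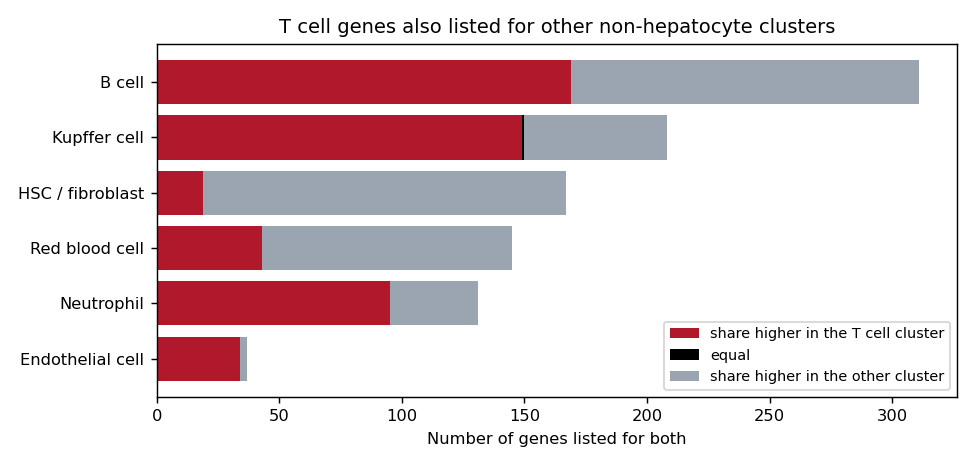
Bars give the number of T cell genes (x axis) that were also listed for each other non-hepatocyte cluster (y axis), divided by the cluster in which the share was higher. Bars for B cells (311), Kupffer cells (208), neutrophils (131) and endothelial cells (37) are mostly red, higher in T cells, and those for the HSC / fibroblast (167) and red blood cell (145) clusters mostly grey.

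A set of 61 genes was listed for T cells, B cells, Kupffer cells and neutrophils at once, and 28 of the 61 had their highest share in T cells. No background over all genes in the table was computed for such a set, so its counts are descriptions only. Of the 61, 29 genes were listed for no further non-hepatocyte cluster, with 11 highest in T cells. They were mainly genes of cytoskeleton, adhesion and signalling in leukocytes. Coro1a was at 80.4% of T cells, 63.2% of B cells, 74.7% of neutrophils and 28.5% of Kupffer cells. Rac2 took the same order of clusters, with 81.8% of T cells, 70.9% of neutrophils, 62.8% of B cells and 34.1% of Kupffer cells. Nfkb1, a subunit of NF-kB, was lowest in neutrophils instead, with 52.0% of T cells, 33.2% of B cells, 38.1% of Kupffer cells and 8.0% of neutrophils. The share in neutrophils was below the 25.8% of all cells outside the T cell cluster, although the gene was listed for neutrophils. Cd44, the hyaluronan receptor raised on memory T cells, was at 42.6% of T cells and was higher in the other 3, up to 52.3% of Kupffer cells.

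**Figure D4:**
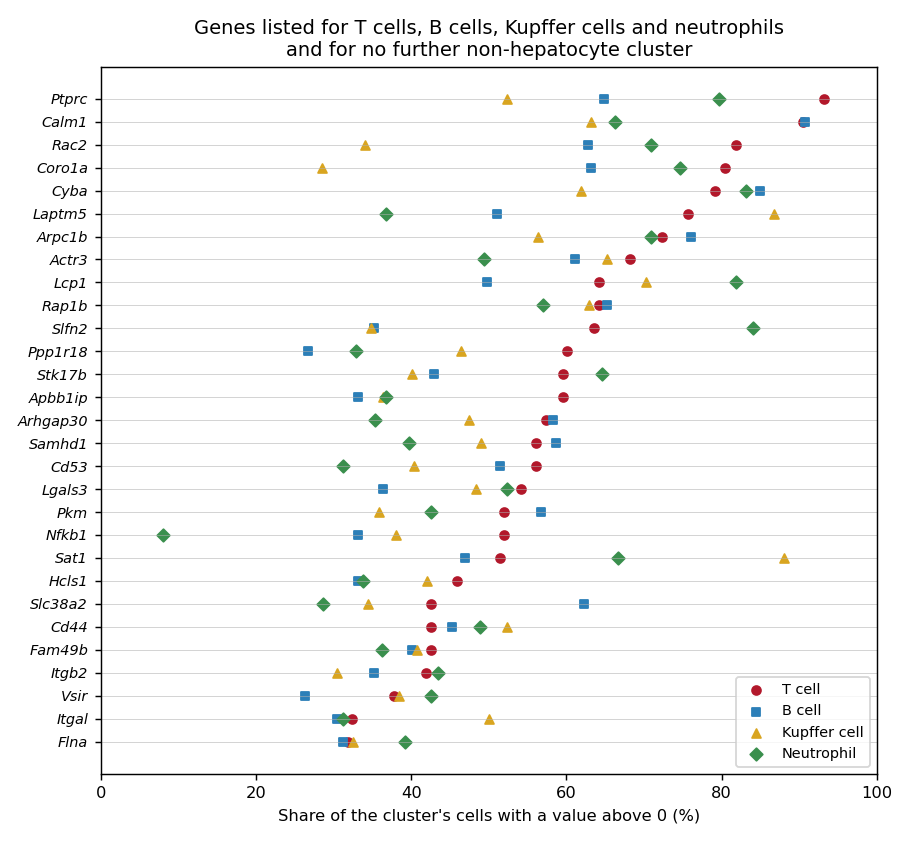
Shares of cells with a value above 0 (x axis, %) in the T cell, B cell, Kupffer cell and neutrophil clusters for the 29 genes (y axis) listed for these 4 clusters and for no further non-hepatocyte cluster, ordered by the share in T cells. Ptprc stands highest for T cells at 93.2%, and 11 of the 29 genes have their highest share in T cells.

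How far a gene picks out the cluster also depends on the size of the cluster. With 1.32% of all cells in it, the T cell cluster held a median of 3.16% of the cells that had a value above 0 for a listed gene. For 365 of the 598 genes it held under 5% of such cells, for 75 genes over 25% and for 37 genes over 50%. The 37 included Trac (100%), Trbc1 (89.5%), Ms4a4b (89.8%), Thy1 (87.3%), Lat (86.5%), Cxcr6 (85.6%), Il7r (72.0%) and Bcl2 (56.7%). The CD3 genes were not among them, since Cd3g stood at 20.8%, Cd3e at 18.0% and Cd3d at 5.49%. Trbc2 stood at 12.9% and Ccl5 at 3.37%. These parts rest on the deposited shares in the other cells, so they are not read as showing where the cells with a transcript lie. Since shares are rounded to 0.1%, these parts are coarse for genes near 0 elsewhere: that of Thy1 could lie from 82.1% to 93.2%, and that of Trac is at least 92.1%.

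A lower share did not keep a gene off the list, as the 17 genes with a lower share in the T cell cluster show. The furthest below were Tent5c, a poly(A) polymerase of secretory cells, at 10.8% against 39.7%, and Rpa3, a subunit of replication protein A, at 17.6% against 42.5%. Trim33, a ubiquitin ligase of TGF-beta signalling, stood at 18.2% against 41.5%, and Erlec1, a lectin of the endoplasmic reticulum, at 17.6% against 38.8%. Stmn1, which destabilises microtubules, had the lowest share in the cluster of all 598 genes, 10.1% against 30.4%. Of the 17, 13 were also listed for another non-hepatocyte cluster (76.5%, against 78.9% of all 598). Smad7, an inhibitor of TGF-beta signalling, was another, at 27.0% against 40.6%.

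Some listed genes were neighbours in the genome. Of 597 genes placed on the annotation, 55 lay in 16 loci with at least 3 listed genes no more than 200 kb apart. This was 9.21% of the genes placed, beside 9.39% of the B cell list, 11.8% of the Kupffer cell list and 3.56% of the HSC / fibroblast list, which are the lists nearest in length. Beside the CD3 and GIMAP loci, they included the SLAM receptors Cd48, Cd84 and Slamf6 on chromosome 1 (chr1:171682009-171953170), with shares of 34.5%, 41.2% and 44.6% in the T cell cluster. Ms4a4b, Ms4a6b and BE692007 on chromosome 19 (chr19:11443553-11531256) had shares of 66.2%, 48.0% and 34.5%, and were at 0.1%, 0.8% and 0.4% of the other cells. In the MHC on chromosome 17, Clic1, Ltb, H2-D1 and H2-Q7 were listed of 6 genes in the table (chr17:35049966-35443773). Cd37, Snrnp70, Bax, Nucb1 and Ppp1r15a on chromosome 7 formed the locus with the most listed genes after the GIMAP genes, 5 of 5, and have unrelated functions.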

How the data were processed

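scRNA-seq libraries were made from hepatocyte preparations of PBS-treated and rIL-33-treated mice, 1 of each. Per the labels and the paper's methods, the authors counted reads with Cell Ranger on mm10, and with Seurat kept cells of 200 to 3000 genes and at most 50% mitochondrial genes, normalised each cell to a total of 10000 on a log scale and clustered them (50 principal components, resolution 5). The upper limit on genes was the authors' step against doublets, and none was added here.

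Each deposited fraction is the part of a cluster's cells, or of all remaining cells, whose value for a gene was not 0, and the text calls it a share and prints it in percent. Which matrix, before or after joining the libraries, gave them is not given in the sources used here. Fold changes and p-values in the same tables compare clusters and are the authors' own findings, so they were neither used nor printed. No count of cells per cluster was analysed, depth is unknown, and no counting interval is given.

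Cluster sizes were computed by least squares from the shares of 1115 genes listed for several clusters (root mean square residual 0.0224 percentage points). Tested on simulated data, the size of the T cell cluster was recovered within 0.00456 percentage points. The simulated shares were built by the relation that the computation assumes, with rounding only. Recovery therefore checks the computation and not whether the deposited shares follow that relation. The part of a gene's cells lying in the T cell cluster follows from its size and both shares. Genes were placed with GENCODE M21 on GRCm38. The members and the 24 gene lists were chosen with earlier results of these data known, and the function groups were assigned after the listed genes were seen, from textbook knowledge. Named genes were the cluster's markers, list members, the 10 with the widest difference, the 10 highest in share among all and among genes listed for T cells alone, the 5 furthest below the other cells, the 3 lowest, and the 5 highest shared with each other cluster. Further genes were chosen as examples after their values were seen. Alternatives were wider differences between shares, a minimum share of 50% in the other cluster, and other ways to compute sizes. The software was pandas 2.3.3 and NumPy 2.4.6 under Python 3.11.15, with matplotlib 3.10.9. A few listed genes are not reported here.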

Additional observations from a re-analysis of the deposited data

How the results depend on the processing

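Of 45 alternative settings, 36 left the value within the limits set for a change and 9 moved it. The limits were wide for counts, so the 36 are not a measure of stability. Within them fell 501 listed genes in place of 598, and 330 genes shared with other non-hepatocyte clusters in place of 472. For Kupffer cells, 145 shared genes in place of 208 did so too. With shares at least 25 percentage points apart, 313 genes remained of 598. With at least 10 points, the median share over the listed genes was 45.3% in the T cell cluster and 12.3% in the other cells, by construction, since genes with close shares leave. Requiring a share of at least 50% in the other cluster left 143 shared genes for B cells, 53 for Kupffer cells, 45 for neutrophils and 3 for endothelial cells, and at least 10 points left 13 for endothelial cells and 5 of the 9 cell cycle genes. No paired analysis was possible because each treatment had 1 library and both are pooled in the table. Leaving out a replicate was not possible for the same reason. Shares are rounded to 0.1 points, so a share of 0.0% is not an absence.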
